A study of Mus musculus with 12 samples.

Results

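The genes described here are 10 members of the piRNA pathway, the small-RNA system that silences transposons in germ cells: Ddx4, Piwil2, Mov10l1, Pld6, Gtsf1, Mael, Asz1, Tdrkh, Tdrd1 and Tdrd9. They were taken by symbol from 2 expression tables of mouse oocytes, where all 10 were found, among 55385 gene models in one table and 55401 in the other. The tables hold 12 RNA-seq libraries of oocytes taken from ovary, 2 for each of 6 groups. In the PRC2 table (8 libraries), control oocytes of genotype Eed F/+; Ddx4-Cre and conditional knockout (cKO) oocytes of genotype Eed F/-; Ddx4-Cre were measured as non-growing oocytes at postnatal day 6 (P6) and as growing oocytes at postnatal day 7 (P7). In the PRC1 table (4 libraries), P7 growing oocytes labelled Ring1-/-; Rnf2 F/+; Ddx4-Cre served as control. The PRC1 cKO growing oocytes, also at P7, are labelled Ring1-/-; Ring1F/-; Ddx4-Cre, a label that repeats Ring1 where Rnf2 may have been meant. Every group thus carries Ddx4-Cre, a recombinase driven in germ cells by the promoter of Ddx4, which is itself one of the 10 genes, and both PRC1 groups carry the Ring1 deletion. Whether reads from the transgene were counted to Ddx4 was not tested. Growth stage and age differ together between P6 and P7 and cannot be told apart.

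PIWI proteins bind piRNAs and use them to find transposon RNA, which they cut, and in fetal male germ cells they also direct DNA methylation to transposons. The precursors of piRNAs are unwound and cut by helicases and a nuclease on the surface of mitochondria, and tudor-domain proteins hold PIWI proteins in perinuclear granules called nuage. In mice the pathway is essential for male fertility, whereas females lacking several of its members stay fertile, and mouse oocytes also silence transposons with small interfering RNAs made by Dicer. Polycomb repressive complex 2 (PRC2, with the subunit Eed) methylates histone H3, and Polycomb repressive complex 1 (PRC1, with Ring1 or Rnf2 as its ligase) ubiquitylates histone H2A. A variant form of PRC1 that contains Mga and Max is known to repress germ-cell genes in embryonic stem cells.

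The promoters of the members were read for CACGTG, an E-box, the sequence that Mga, Max and Myc are known to bind. A link of this motif with the expression changes was not tested. RefSeq promoter windows on GRCm38.p6, from 250 bases before to 50 bases after the start, matched 9 of the 10 members, and Piwil2 had no entry. CACGTG, which reads the same on both strands, was present in the windows of 6 of these 9 genes (Ddx4, Mael, Mov10l1, Pld6, Tdrd1 and Tdrd9) and not in those of Asz1, Gtsf1 and Tdrkh. It was present for 8.09% of the 26994 genes with a window and in 7.15% of the 32817 windows. The stretch around each match is shown 5′ to 3′ on the strand of the gene, with the E-box in capitals.
Mael, chr1:166238950-166238979, minus strand: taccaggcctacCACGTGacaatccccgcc
Pld6, chr11:59787673-59787702, minus strand: ggggcgggctggCACGTGttgggcgcgcaa
Tdrd9, chr12:111971382-111971411, plus strand: ggtctccataaaCACGTGcctgtccaggtc
Tdrd9, chr12:111971452-111971481, plus strand: gcacgaggctccCACGTGcatgcagggcct
Ddx4, chr13:112652322-112652351, minus strand: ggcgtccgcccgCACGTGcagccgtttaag
Mov10l1, chr15:88982744-88982765, plus strand: ccttCACGTGctaaccgccaac
Tdrd1, chr19:56826186-56826215, plus strand: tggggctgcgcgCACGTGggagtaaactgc

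The match lay close to the RefSeq start in Tdrd1, Ddx4 and Pld6, with its first base at positions -11, -29 and -33, and far from it in Mael and Mov10l1, at -223 and -246. From a second RefSeq start of Tdrd1, the match lay at -77. The gene models behind the expression values can start elsewhere. The Ddx4 model reaches 112652475 on the minus strand, so that its match lies inside that model. Position -1 is the last base before the start. A second motif, GCGGGA on either strand, the core that E2F proteins are known to bind, was present for 2 of the 9 genes (Ddx4 and Mael) and for 22% of all genes. The member windows held a median of 20 CG dinucleotides (range 3 to 38, 12 windows), against 7 over all windows. CACGTG itself contains a CG, and its share among windows equally rich in CG was not counted. Mael and Asz1 are shown at length because both differed between PRC1 cKO and control, one with the E-box and one without it. The capitals in the Mael sequence mark CACGTG and TCCCGC, the reverse complement of GCGGGA.
Mael, chr1:166238748-166238994, minus strand: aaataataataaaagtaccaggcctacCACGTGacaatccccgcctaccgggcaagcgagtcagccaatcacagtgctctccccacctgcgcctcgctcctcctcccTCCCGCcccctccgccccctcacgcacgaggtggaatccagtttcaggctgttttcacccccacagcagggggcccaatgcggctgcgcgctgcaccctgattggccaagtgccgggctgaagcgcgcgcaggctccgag
Asz1, chr6:18109062-18109311, minus strand: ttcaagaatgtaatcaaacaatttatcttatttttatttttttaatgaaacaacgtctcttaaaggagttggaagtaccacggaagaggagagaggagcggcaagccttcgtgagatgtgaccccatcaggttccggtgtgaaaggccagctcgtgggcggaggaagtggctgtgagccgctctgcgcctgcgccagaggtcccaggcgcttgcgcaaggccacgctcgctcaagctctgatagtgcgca
Both stretches end at the edge of the annotated exons. A match describes these letters in these windows, and binding was not measured.

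Expression is given as TPM, a measure of transcript abundance per length that has a fixed sum in every library. Levels of different genes can thus be compared, but depth cannot be read from it. The labels do not state whether paired libraries of a group stem from different animals. If they do not, the p-values cover technical spread alone. Where a library is left out below, its group holds 1 library and adds no spread, so that those p-values rest on the other groups. The targeted gene Eed had 88.9 and 90.5 TPM against 12.1 and 10.3 TPM (control against PRC2 cKO) before growth, and 62.3 and 60.5 TPM against 9.64 and 10.1 TPM during growth. Rnf2 had 59.2 and 53.8 TPM in PRC1 control, and 87.8 and 61.4 TPM under the PRC1 cKO label (log2 fold change 0.37, limma adjusted p = 0.197, and -0.27 after trimmed-mean scaling), and a value per gene does not check a deletion of part of a gene. Ring1 was listed at no more than 0.02 TPM in the 4 PRC1 libraries. Protein-coding genes took 85.9 to 88.2% of TPM in non-growing libraries and 59.3 to 63.4% in the growing PRC2 and PRC1 control libraries, but 76.1 and 71.3% in PRC1 cKO. With a fixed sum, such shares move the TPM of every gene, so each comparison is also given under other scalings. The 12 oocyte markers summed to between 22406 and 32671 TPM with none listed at 0. The 10 granulosa markers summed to 4.48 to 13.2 TPM in 10 libraries and to 36.0 and 25.3 TPM in the PRC1 cKO libraries, where none of the 10 was listed at 0. Among them, Inha had 0.59 and 2.68 TPM in PRC1 control and 17.2 and 10.9 TPM in PRC1 cKO, and Kitl 1.22 and 0.86 TPM against 7.78 and 4.95 TPM. Foxl2 was listed at 0 in both controls and had 0.19 and 0.14 TPM in cKO, Amh had 0 and 0.05 TPM against 0.24 and 0.04 TPM, and Nr5a2 was lower in cKO (6.40 and 6.62 TPM against 3.77 and 4.04 TPM). The 8 stroma markers summed to 0.82 to 6.21 TPM in those 10 libraries and to 6.22 and 9.39 TPM in PRC1 cKO. Endothelial and immune markers summed to no more than 12.01 and 5.53 TPM in any library.

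Gtsf1, a small zinc-finger cofactor that helps PIWI proteins cut their targets, had the highest mean level of the members in every group, and stood at 3817 and 3801 TPM in control non-growing oocytes. Mael, a nuage protein needed to silence LINE elements in male germ cells, followed in these libraries at 575 and 599.8 TPM. Below it came the germ-granule helicase Ddx4 (177 and 179.9 TPM), the mitochondrial scaffold Asz1 (144 and 147 TPM), the precursor helicase Mov10l1 (83.0 and 87.9 TPM) and Tdrkh, a mitochondrial tudor protein used in trimming piRNAs (75.4 and 79.5 TPM). The tudor scaffold Tdrd1, at 51.2 and 53.2 TPM, stood above the PIWI protein gene Piwil2, at 27.6 and 27.3 TPM. The tudor helicase Tdrd9 (22.4 and 22.8 TPM) and Pld6, the nuclease that cuts piRNA precursors (14.3 TPM in both libraries), were lowest. In this group no neighbours in the order overlapped. In PRC1 cKO growing oocytes, 8 of the 9 neighbouring pairs in the order overlapped, and only Mael and Ddx4 were separate. Together the 10 genes summed to between 4841 and 5098 TPM in the 4 non-growing libraries, to between 1441 and 1793 TPM in the 4 growing PRC2 libraries, to 1473 and 1497 TPM in PRC1 control and to 2070 and 1808 TPM in PRC1 cKO.

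**Figure D1:**
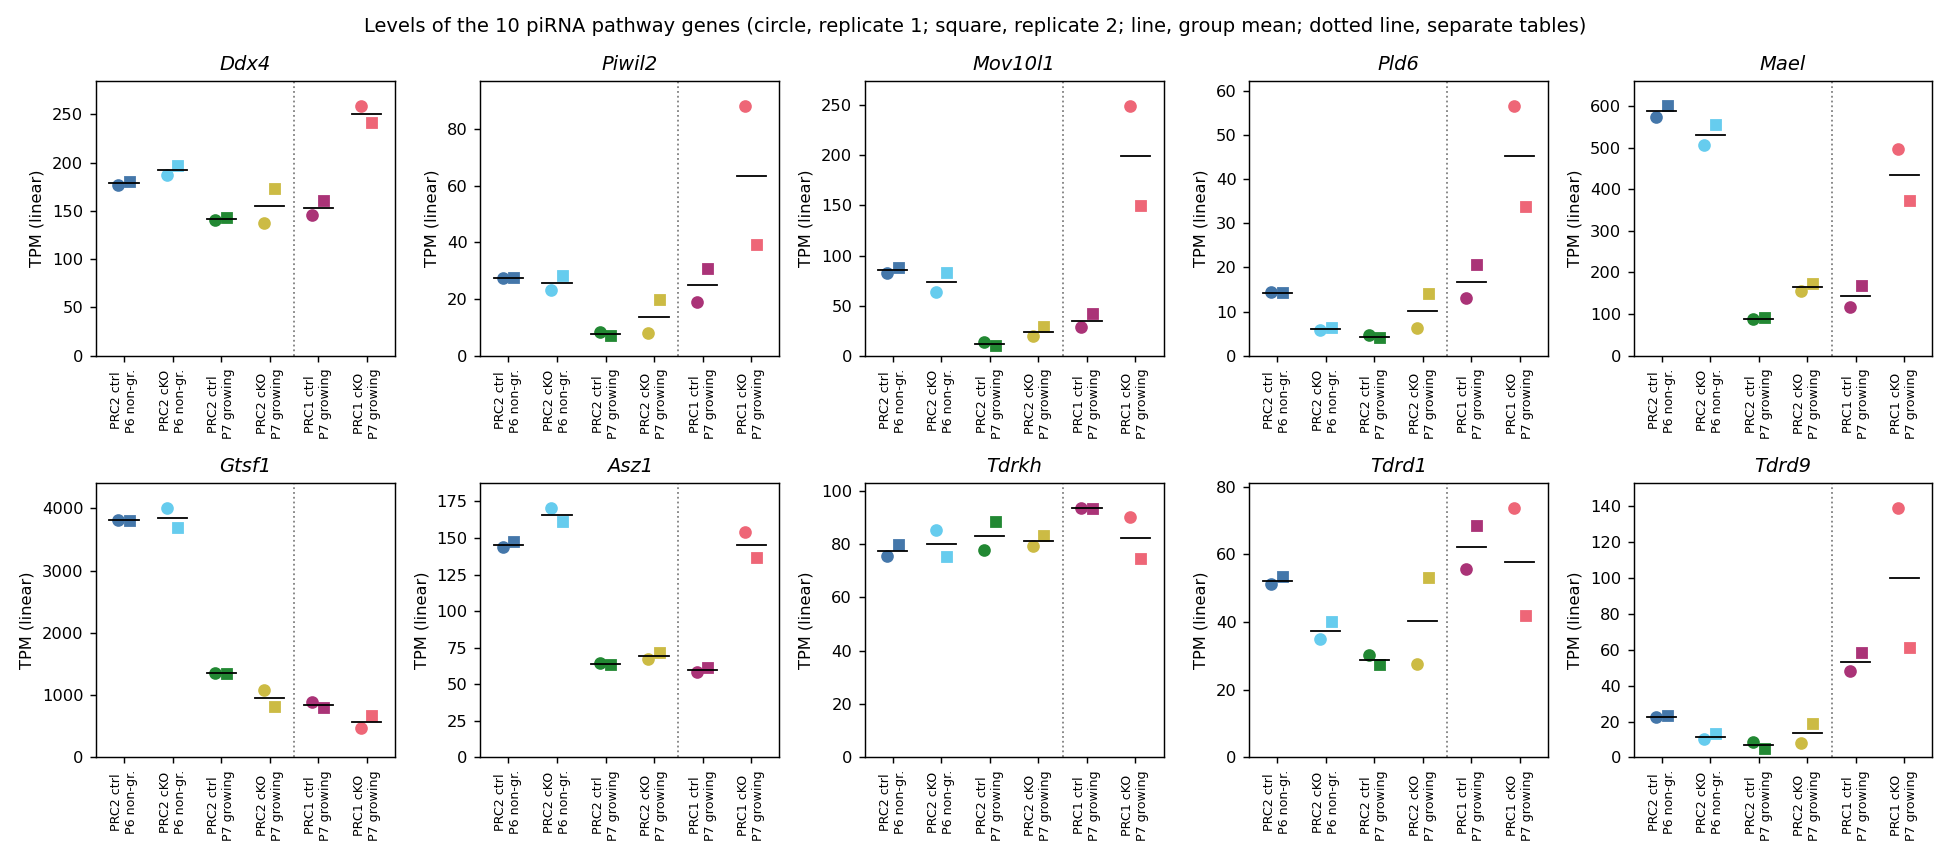
TPM of each of the 10 genes (vertical axes, linear from 0) in each library of the 6 groups (horizontal axes), with circles for replicate 1, squares for replicate 2, a line for the group mean and a dotted line between the separately normalized tables. Mael and Gtsf1 are highest in the P6 non-growing oocytes, and Mov10l1 and Pld6 are highest in PRC1 cKO.

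From non-growing to growing oocytes in the PRC2 control, 9 of the 10 genes fell with the values as deposited, and Tdrkh was level. The largest falls were those of Mov10l1 and Mael. Over all 14153 genes tested, 70.6% passed in this comparison and 54% passed as lower, so a fall was the common outcome. On the log2(TPM + 1) scale, which understates changes of low genes, the median over the members was -1.51, and over all tested genes -0.67. Of the 10, 8 lay below the all-gene median. The libraries of the stages were separate, with the growing ones lower, for 9 members and for 66.2% of all tested genes.

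Mael went from 575 and 599.8 TPM to 88.5 and 90.3 TPM (-2.70 on the log2 scale, SE 0.09, limma adjusted p = 2.9e-06). The levels of the stages were far apart and replicates lay close together. Mov10l1, which hands precursor RNA to the piRNA machinery, went from 83.0 and 87.9 TPM to 14.2 and 9.68 TPM (-2.76, SE 0.25, limma adjusted p = 8.55e-05). Piwil2 went from 27.6 and 27.3 TPM to 8.24 and 6.88 TPM (-1.74, SE 0.37, limma adjusted p = 0.00448). Both genes were separate between the stages, as was the nuclease Pld6, which went from 14.3 TPM in both libraries to 4.78 and 3.92 TPM (-1.52, SE 0.32, limma adjusted p = 0.00448).

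Gtsf1 stayed the most abundant member and went from 3817 and 3801 TPM to 1355 and 1345 TPM (-1.50, SE 0.13, limma adjusted p = 8.51e-05). The scaffold Asz1 went from 144 and 147 TPM to 64.9 and 63.0 TPM (-1.17, SE 0.08, limma adjusted p = 3.27e-05). Neither gene overlapped between the stages. Tdrd9 went from 22.4 and 22.8 TPM to 8.85 and 4.60 TPM (-1.67, SE 0.41, limma adjusted p = 0.00945). Its growing replicates stood well apart, with replicate 2 the lower. The call was lost without that library (-1.26, limma adjusted p = 0.06) and with trimmed-mean scaling (-0.99, limma adjusted p = 0.0538), and the adjusted p ran from 0.00436 to 0.0538 over the settings that left no library out.

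Tdrd1, the scaffold that binds Piwil2 protein, went from 51.2 and 53.2 TPM to 30.3 and 27.3 TPM (-0.84, SE 0.27, limma adjusted p = 0.0285). Its call was lost under all 3 other scalings and without any 1 of the 4 control libraries (limma adjusted p between 0.0717 and 0.115). Ddx4 was at 177 and 179.9 TPM and then at 140.2 and 143 TPM. Its change of -0.33 (SE 0.12, limma adjusted p = 0.0353) turned to 0.32 after quantile normalization, 0.41 after trimmed-mean scaling and 0.16 after scaling to the sum of protein-coding genes, and Ddx4 passed as higher after the quantile and trimmed-mean scalings (limma adjusted p = 0.0339 and 0.00629, and 0.205 after the last). Leaving out any of 6 of the table's 8 libraries also ended the Ddx4 call. Tdrkh was at 75.4 and 79.5 TPM and then at 77.6 and 88.1 TPM, with overlapping stages (0.09, SE 0.11, limma adjusted p = 0.456). It passed as higher under all 3 scalings, at 0.73, 0.83 and 0.58 in the same order. Those scalings moved the all-gene median from -0.67 to -0.22, -0.06 and -0.27, and the share of calls that were higher from 23.5% to 40.8, 49.5 and 38.7%. Over all tested genes, 3520 passed as higher and 5116 as lower of 14153, 4067 and 4155 of 14060, and 3513 and 5561 of 15040. The other 8 genes kept a negative change with each of these scalings.

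In PRC2 cKO oocytes, 5 of the 10 genes fell from non-growing to growing oocytes with the values as deposited, where 66.1% of tested genes passed, 46% passed as lower and 20.1% as higher. These 5 were Mael, Mov10l1, Gtsf1, Asz1 and Ddx4. The median of the members was -0.64, against -0.45 for all tested genes. Growing libraries were separate and lower for 6 members, where 54.1% of all tested genes were, and separate and higher for none of them, where 25.2% were. Gtsf1 went from 4011 and 3684 TPM to 1089.7 and 808 TPM (-2.03, SE 0.13, limma adjusted p = 2.36e-05). Mael went from 507 and 554 TPM to 156 and 172 TPM (-1.69, SE 0.09, limma adjusted p = 1.07e-05). Both were separate between the stages, and so was Mov10l1, which went from 63.5 and 83.0 TPM to 19.4 and 28.9 TPM (-1.58, SE 0.25, limma adjusted p = 0.00121). Asz1 went from 171 and 161 TPM to 67.6 and 71.3 TPM (-1.24, SE 0.08, limma adjusted p = 2.39e-05), while Ddx4 was at 187 and 197 TPM and then at 137 and 172 TPM (-0.32, SE 0.12, limma adjusted p = 0.044). The Ddx4 change turned to 0.37, 0.22 and 0.18 under the quantile, trimmed-mean and protein-coding scalings and passed as higher after the first of them (limma adjusted p = 0.02, 0.0633 and 0.165), and leaving out any of 7 of the 8 libraries ended its call.

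The other 5 genes did not pass in PRC2 cKO with the values as deposited: Piwil2 had -0.97 (limma adjusted p = 0.0506), Pld6 0.56 (0.165), Tdrd9 0.09 (0.86), Tdrd1 0.03 (0.92) and Tdrkh 0.02 (0.878). Pld6 passed as higher after quantile (0.76, limma adjusted p = 0.0417), trimmed-mean (1.02, 0.0136) and protein-coding scaling (1.02, 0.0264), and so did Tdrkh (0.54, 0.55 and 0.51, with limma adjusted p = 0.00478, 0.00813 and 0.00595). The members then gave 3 higher and 4 lower, 2 and 4, and 2 and 4 calls in the same order of scalings. Over all tested genes, 3646 passed as higher and 5371 as lower of 14153, 4419 and 4267 of 14060, and 4366 and 4628 of 15040. The all-gene median moved from -0.45 to -0.22, 0.003 and -0.03, and the share of calls that were higher from 30.4% to 40.4, 50.9 and 48.5%. The values of Piwil2, Pld6, Tdrd9 and Tdrd1 rested on growing replicate 2, in which each of them was about double replicate 1 or more. Piwil2 was at 7.87 and 19.8 TPM there, Pld6 at 6.25 and 13.9 TPM, Tdrd9 at 7.88 and 18.9 TPM and Tdrd1 at 27.6 and 53.0 TPM. Without replicate 2, which leaves 1 library in that group, the change was -1.58 for Piwil2 and -0.42 for Tdrd1. Without replicate 1, the change had the other direction for Tdrd1 (0.49), and it was 1.08 for Pld6 and -0.15 for Ddx4. Over all tested genes, the median absolute log2 difference between the PRC2 cKO growing replicates was 0.256, against 0.113 to 0.191 in the other groups of the table. The growth comparisons in control and cKO and the cKO comparisons at each stage share libraries, and their values stand side by side here.

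The first question of the series design is how PRC2 cKO and control differ in non-growing oocytes. None of the 10 genes passed there with limma, and 44 of 14153 genes (0.311%) passed. An unadjusted limma p under 0.05 was found for 1 member and for 2316 of all 14153 tested genes. No member passed under any of the other settings run either. The median log2 fold change of the members was -0.12, against -0.09 for all tested genes. The libraries of the groups were separate for 7 members, 2 higher and 5 lower in cKO, where 20.3% of all tested genes were separate and higher and 38.1% separate and lower.

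The nuclease Pld6 had the largest difference, with 14.3 TPM in both control libraries and 5.81 and 6.36 TPM in cKO (-1.11, SE 0.32, limma adjusted p = 0.199, and from 0.0628 to 0.296 over the settings that left no library out). Tdrd9 was at 22.4 and 22.8 TPM against 10.1 and 13.1 TPM (-0.92, SE 0.41, limma adjusted p = 0.324). Tdrd1 was at 51.2 and 53.2 TPM against 34.9 and 40.0 TPM (-0.47, SE 0.27, limma adjusted p = 0.418). For these 3 genes, both cKO libraries lay below both controls without passing the test. Mael was at 575 and 599.8 TPM against 507 and 554 TPM (-0.15, limma adjusted p = 0.417), and Mov10l1 at 83.0 and 87.9 TPM against 63.5 and 83.0 TPM (-0.23, limma adjusted p = 0.653). Asz1 (144 and 147 against 171 and 161 TPM, change 0.19, limma adjusted p = 0.315) and Ddx4 (177 and 179.9 against 187 and 197 TPM, change 0.10, limma adjusted p = 0.668) were the 2 genes with both cKO libraries above both controls. Gtsf1, Piwil2 and Tdrkh overlapped between the groups, with changes of 0.01, -0.10 and 0.04.

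In growing oocytes, Mael was the 1 member that rose in PRC2 cKO, from 88.5 and 90.3 TPM in control to 156 and 172 TPM (0.87, SE 0.09, limma adjusted p = 0.0296). Over all tested genes 0.17% passed, 0.12% as higher and 0.0495% as lower. The Mael groups were separate, yet the cKO level remained far below the 507 to 599.8 TPM of the non-growing libraries. Trimmed-mean scaling ended the call (0.74, limma adjusted p = 0.0577), as did fits without a trend in the variance model and on the compared groups alone, and the adjusted p ran from 0.0139 to 0.207 over the settings that left no library out. Leaving out any of 7 of the table's 8 libraries ended it too, with changes between 0.79 and 0.88. Without cKO growing replicate 1 the change was 0.94.

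The other 9 genes did not pass in growing PRC2 cKO oocytes. Pld6 had 4.78 and 3.92 TPM against 6.25 and 13.9 TPM (0.96, SE 0.32, limma adjusted p = 0.42), and Mov10l1 had 14.2 and 9.68 TPM against 19.4 and 28.9 TPM (0.95, SE 0.25, limma adjusted p = 0.322). Both genes had their cKO libraries above their controls, as did Asz1 by a small margin (64.9 and 63.0 against 67.6 and 71.3 TPM). Tdrd9 (0.84, limma adjusted p = 0.563), Piwil2 (0.67, 0.585) and Tdrd1 (0.40, 0.633) overlapped between the groups, since their cKO replicate 1 lay between the control replicates. Gtsf1 had the opposite direction, with 1355 and 1345 TPM against 1089.7 and 808 TPM (-0.52, SE 0.13, limma adjusted p = 0.314). Its change ran from -0.74 (without cKO replicate 1) to -0.31 with each library left out in turn, in fits that have 1 library in a group. Over all 10 genes the median change was 0.54, against 0.08 for all tested genes, and it was 0.90 without cKO replicate 1 and 0.07 without cKO replicate 2. Ddx4 and Tdrkh overlapped between the groups, with changes of 0.12 and -0.03. Of the 10 genes, 4 were separate and higher, where 23.5% of all tested genes were, and 1 was separate and lower, where 13% were.

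The difference between the PRC2 cKO effects of the stages was tested directly, as the effect in growing minus that in non-growing oocytes. No member passed with limma, and 14 of 14153 genes (0.0989%) passed, 0.0919% with a positive and 0.00707% with a negative difference. An unadjusted limma p under 0.05 was found for 5 members and for 2230 of all 14153 tested genes. The difference was 1.01 for Mael (SE 0.12, limma adjusted p = 0.0652). Mael passed with quantile normalization and with protein-coding scaling (from 0.0405 to 0.206 over the settings that left no library out). For Pld6, which was low in cKO at the first stage and high in 1 cKO library at the second, the difference was 2.08 (SE 0.45, limma adjusted p = 0.285). Tdrd9 had 1.76, Mov10l1 1.19 and Gtsf1 -0.54, each with a limma adjusted p of 0.305. The median difference of the members was 0.82 with all libraries. It was 1.21 without PRC2 cKO growing replicate 1 and 0.28 without PRC2 cKO growing replicate 2, in fits with 1 library in that group. The size of these differences thus depended on single libraries.

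**Figure D2:**
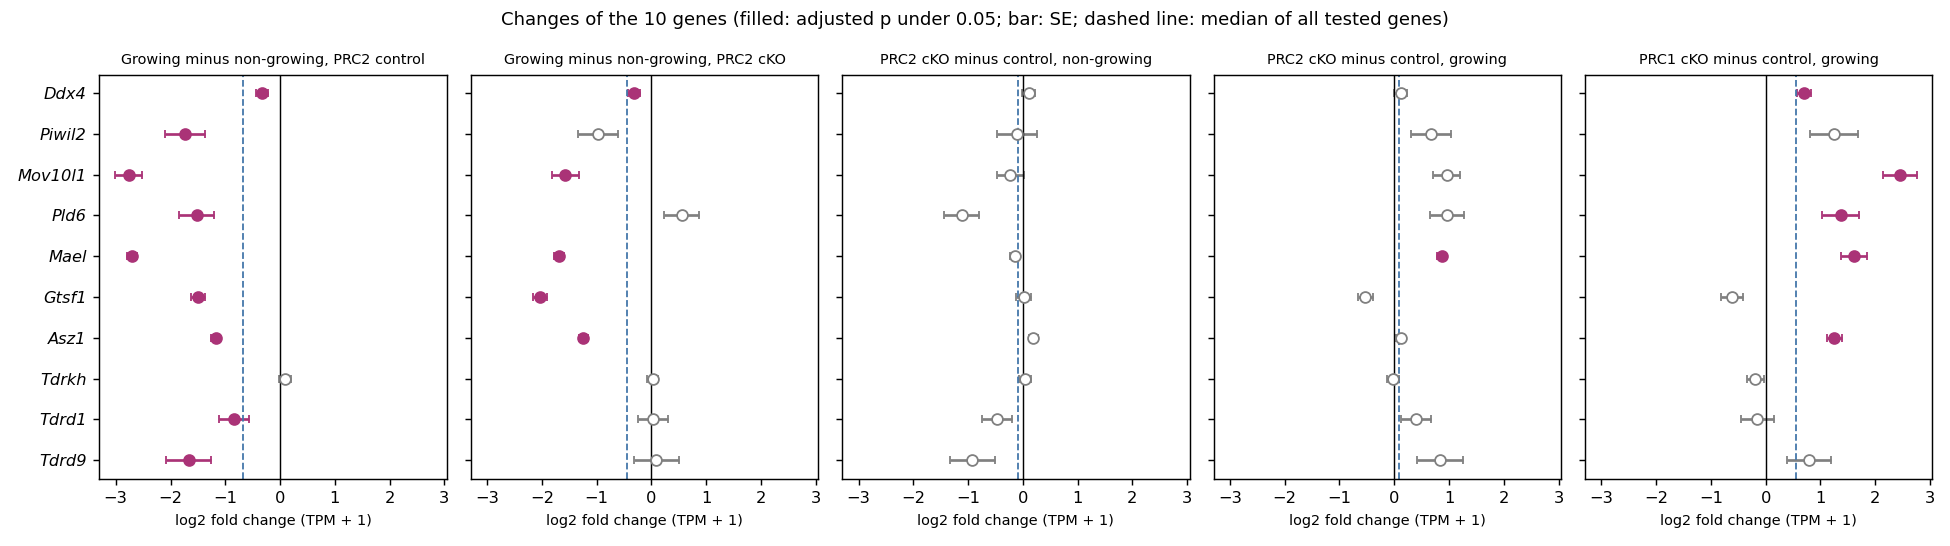
Log2 fold changes of TPM + 1 (horizontal axes) of the 10 genes in 5 comparisons, with bars for the standard error, filled points for a limma adjusted p under 0.05, and a dashed line at the median of all tested genes. The points of Mael and Mov10l1 lie far to the left in the growth comparisons and to the right in PRC1 cKO, where the dashed line is at 0.549.

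The second question of the series design is how PRC1 cKO and control differ in growing oocytes. With the values as deposited, 5 of the 10 genes rose in PRC1 cKO, namely the precursor helicase Mov10l1, Mael, the nuclease Pld6, the scaffold Asz1 and the germ-granule helicase Ddx4. Of 14941 genes tested, 47.8% passed, 41.3% as higher and 6.45% as lower, so the share of members called is near that of all genes. The median over the members was 1.02, and over all tested genes 0.55. Granulosa markers were also higher in these cKO libraries, as given above, and their part in the result was not tested. In bulk samples, a different share of cells of a type and a different amount of RNA per cell cannot be told apart.

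Mov10l1 went from 28.7 and 41.7 TPM in control to 249 and 149.7 TPM in cKO (2.45, SE 0.31, limma adjusted p = 0.00455). That is 5.46-fold on the scale of TPM + 1, the largest change among the 10 genes, and the groups were far apart. Mael went from 117 and 168 TPM to 496 and 373 TPM (1.61, SE 0.24, limma adjusted p = 0.00628). Asz1 went from 58.7 and 61.3 TPM to 154 and 136 TPM (1.26, SE 0.14, limma adjusted p = 0.00344). In all 3 genes the groups were separate, and the calls held under every scaling. With each library left out in turn, the changes ran from 2.08 to 2.81 for Mov10l1, 1.35 to 1.87 for Mael and 1.17 to 1.34 for Asz1.

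Pld6 went from 13.0 and 20.5 TPM to 56.6 and 33.8 TPM (1.37, SE 0.34, limma adjusted p = 0.0252). Its call was lost after trimmed-mean scaling (0.74, limma adjusted p = 0.0777), in at least 1 other setting and without PRC1 control replicate 1 (1.06). The adjusted p ran from 0.000808 to 0.0795 over the settings that left no library out. In PRC1 such ranges include the crossed replicate block described at the end, a fit chosen after seeing the data. Ddx4 went from 146 and 160.2 TPM to 259 and 242 TPM (0.71, SE 0.13, limma adjusted p = 0.011). Its groups were separate, but after trimmed-mean scaling the change was 0.06 (limma adjusted p = 0.734, the highest of a range from 0.00281 over the settings that left no library out), and the call was also lost without PRC1 control replicate 1 (0.64, limma adjusted p = 0.0897).

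The other 5 genes did not pass in PRC1 cKO. Piwil2 had 19.0 and 30.6 TPM against 88.2 and 39.1 TPM (control against cKO, 1.25, SE 0.44, limma adjusted p = 0.0685), and Tdrd9 had 48.0 and 58.3 TPM against 139 and 60.8 TPM (0.79, SE 0.40, limma adjusted p = 0.161). In both genes cKO replicate 1 was more than double replicate 2, and the replicates of the control differed as well. With each library left out in turn, the change ran from 0.67 to 1.83 for Piwil2 and from 0.20 to 1.38 for Tdrd9. Both were highest without cKO replicate 2, in a fit with 1 cKO library. Gtsf1 had the opposite direction, with 894 and 794 TPM against 465 and 658 TPM (-0.61, SE 0.20, limma adjusted p = 0.0585). It passed as lower under quantile, trimmed-mean and protein-coding scaling (-0.77, -1.26 and -0.84), and its change was -0.86 without cKO replicate 2. Tdrkh was at 93.6 and 93.2 TPM against 90.2 and 74.3 TPM (-0.19, SE 0.15, limma adjusted p = 0.349), and passed as lower with the first and second of these scalings. Tdrd1 was at 55.8 and 68.4 TPM against 73.8 and 41.7 TPM, the 1 member whose groups overlapped (-0.15, SE 0.30, limma adjusted p = 0.701), and it passed as lower after trimmed-mean scaling (-0.79, limma adjusted p = 0.0443). Of the members, 7 were separate and higher and 2 separate and lower, where 62.3% and 15.2% of all tested genes were.

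After scaling, the all-gene median in this comparison was -0.04 (quantile), -0.03 (trimmed mean) and 0.38 (protein-coding), in place of 0.55. The share of calls that were higher went from 86.5% to 50.8, 50.5 and 77.9%. The members then gave 5 higher and 2 lower calls with quantile normalization, 3 higher and 3 lower with trimmed-mean scaling, and 5 higher and 1 lower with protein-coding scaling. Over all tested genes, 2722 of 14941 passed as higher and 2636 as lower with quantile normalization. These counts were 3178 and 3117 of 14675 with trimmed-mean scaling, and 5438 and 1539 of 15985 with protein-coding scaling. Relative to the all-gene median, Mov10l1 was higher by 1.90, Mael by 1.06, Pld6 by 0.82, Asz1 by 0.71 and Ddx4 by 0.16. Of the 5 genes that rose with the values as deposited, 4 hold the CACGTG motif shown above in their promoter window and Asz1 does not. Tdrd1 and Tdrd9, which did not pass with the values as deposited and all libraries, hold it as well, so that 6 of the 9 members with a window hold it in all. The share with the motif among all genes that rose was not counted, and a link of the motif with the change was not tested.

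**Figure D3:**
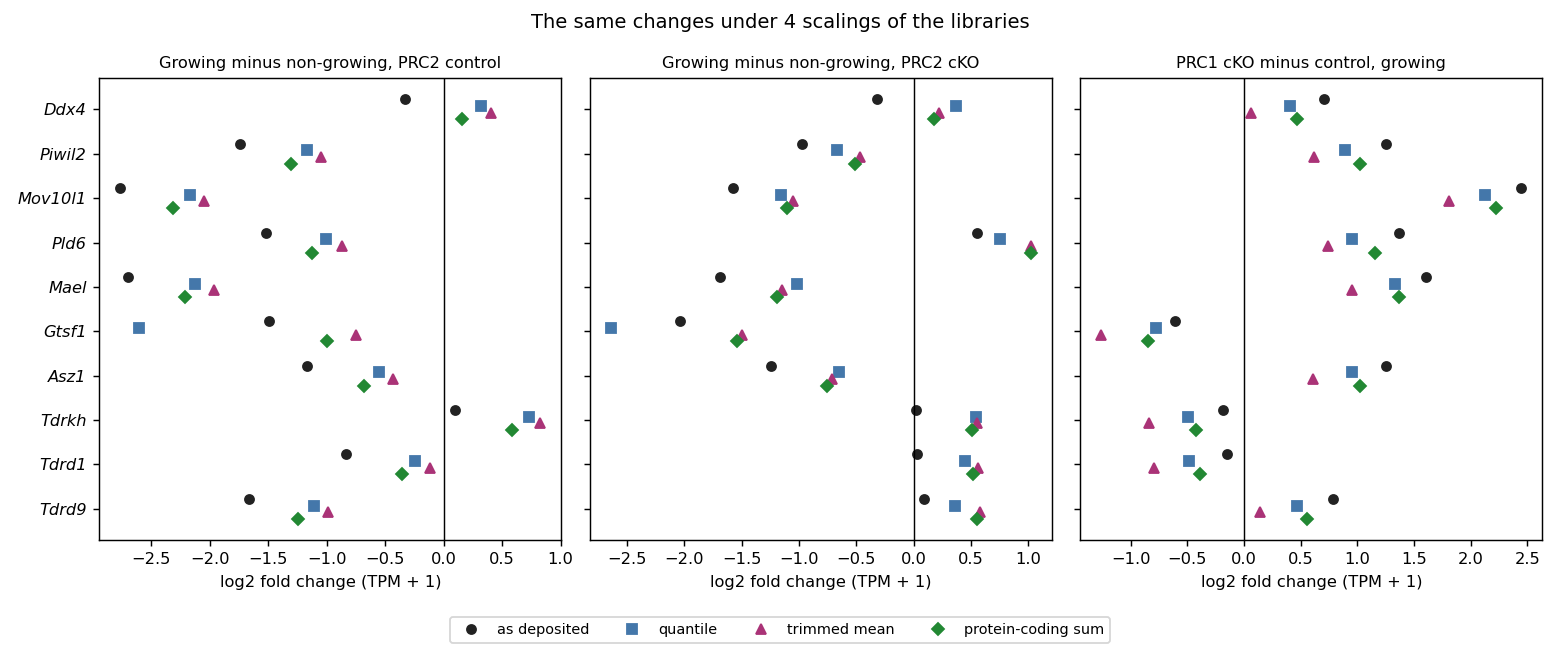
Log2 fold changes of the 10 genes (horizontal axes) in the 2 growth comparisons and in PRC1 cKO against control, as deposited (circles) and after quantile (squares), trimmed-mean (triangles) and protein-coding (diamonds) scaling. Ddx4 changes side in both growth comparisons, while Mael and Mov10l1 keep their side in all 3 panels.

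A further list of 20 piRNA pathway genes was described beside the members. In PRC1 cKO, 8 of the 18 tested genes of that list passed as higher and 1 as lower (median 0.58, all tested genes 0.55). Over all tested genes, 41.3% passed as higher and 6.45% as lower, so the share of the list called as higher is near that of all genes. The counts of the list were 4 higher and 3 lower after quantile, 4 and 5 after trimmed-mean and 7 and 1 after protein-coding scaling. The all-gene counts in the same order were 2722 and 2636 of 14941, 3178 and 3117 of 14675, and 5438 and 1539 of 15985. Btbd18, a nuclear factor that promotes transcription of piRNA precursors in the testis, went from 0.20 and 0.10 TPM to 15.9 and 7.73 TPM (3.40, SE 0.36, limma adjusted p = 0.00323). Tex15, which acts with PIWI proteins in transposon methylation in male germ cells, went from 17.6 and 27.2 TPM to 143 and 128 TPM (2.58, SE 0.24, limma adjusted p = 0.00257). The co-chaperone gene Fkbp6 went from 134 and 161 TPM to 492 and 400.1 TPM (1.59, SE 0.17, limma adjusted p = 0.00331), and Piwil4, the nuclear PIWI protein gene, from 1.72 and 1.52 TPM to 11.7 and 7.56 TPM (1.99, SE 0.28, limma adjusted p = 0.00545). These 4 genes had separate groups and kept their calls under each scaling. Btbd18 fell below the expression filter without either cKO library. Tdrd12, a tudor-domain helicase of secondary piRNA production and the 1 gene of the list that fell, was at 102 and 98.2 TPM against 48.7 and 55.2 TPM (-0.94), and was named after its value was seen.

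**Figure D4:**
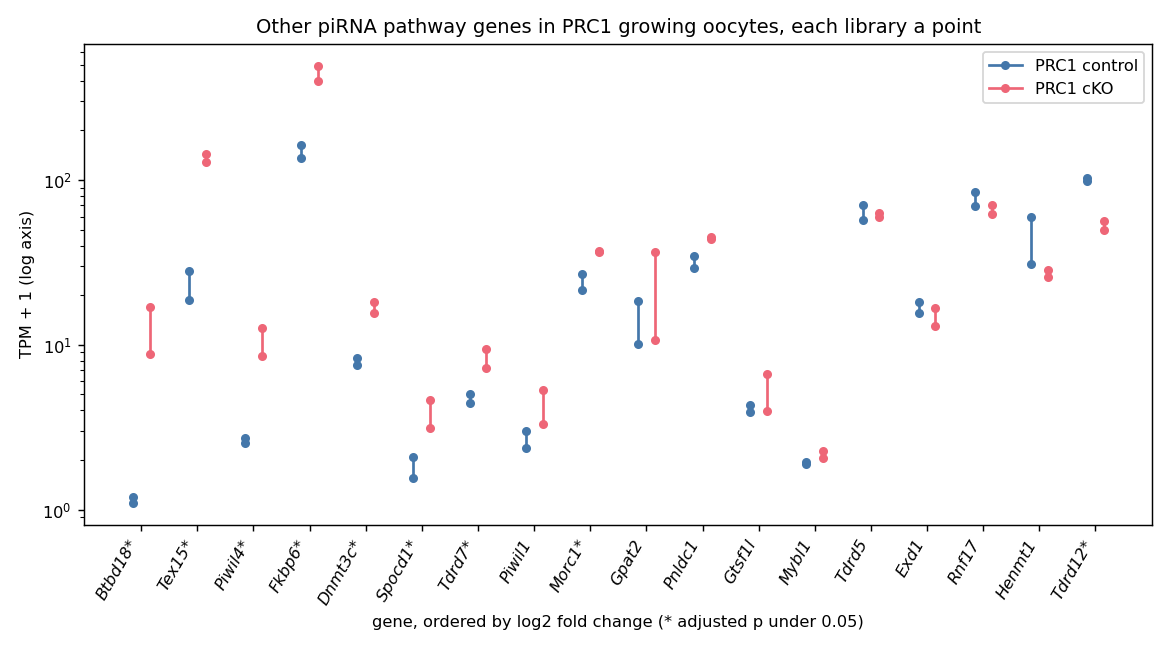
TPM + 1 (vertical log axis) of the 18 tested genes of the further piRNA list in the PRC1 control and PRC1 cKO libraries, 1 point per library, ordered by log2 fold change, with asterisks for a limma adjusted p under 0.05. Btbd18 and Tex15 stand highest above their controls, and Tdrd12 is the 1 gene marked as lower.

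In growth of the PRC2 control, 3 of 16 tested genes of the further list passed as higher and 9 as lower, and with each of the 3 other scalings 6 passed as higher and 5 as lower. Over all tested genes, 16.6% passed as higher and 54% as lower with the values as deposited, which is near the shares of the list. The all-gene counts were 3520 and 5116 of 14153 after quantile, 4067 and 4155 of 14060 after trimmed-mean and 3513 and 5561 of 15040 after protein-coding scaling. Tex15 fell from 305 and 287 TPM to 42.1 and 22.2 TPM (-3.23), Fkbp6 from 479 and 502 TPM to 83.9 and 60.6 TPM (-2.76) and Morc1, a nuclear ATPase of transposon silencing, from 56.5 and 59.6 TPM to 19.6 and 19.4 TPM (-1.53). Tdrd12 rose from 13.6 and 14.0 TPM to 56.0 and 90.5 TPM (2.28). The stages were separate in all 4 genes (limma adjusted p = 5.29e-05, 1.33e-05, 0.000219 and 0.000115 in this order), and the directions held under each scaling. In growth of the PRC2 cKO, 3 passed as higher and 8 as lower, against 5 and 7 after quantile, 5 and 5 after trimmed-mean and 5 and 6 after protein-coding scaling. Over all tested genes, 20.1% passed as higher and 46% as lower with the values as deposited. The all-gene counts were 3646 and 5371 of 14153 after quantile, 4419 and 4267 of 14060 after trimmed-mean and 4366 and 4628 of 15040 after protein-coding scaling. In this comparison Fkbp6 (-2.24), Piwil4 (-2.08), Morc1 (-1.57) and Tdrd12 (2.07) had the smallest p-values. With limma, none of the 16 passed for PRC2 cKO against control at either stage, where 0.311% and 0.17% of all tested genes passed. An unadjusted limma p under 0.05 was found for 4 of them in non-growing and 5 in growing oocytes. Of all 14153 tested genes, 2316 and 1407 had such a p. Piwil4 came nearest in non-growing oocytes, with 7.08 and 7.44 TPM against 19.7 and 17.7 TPM (1.25, SE 0.21, limma adjusted p = 0.0737, and from 0.033 to 0.127 over the settings that left no library out), and Tex15 in growing oocytes, at 42.1 and 22.2 against 70.2 and 65.4 TPM (1.12, SE 0.26, limma adjusted p = 0.269).

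Transposons are also silenced by DNA methylation, histone methylation and small interfering RNAs, and 27 of 28 listed genes of these systems were tested in each table. In growth of the PRC2 control, 6 of these passed as higher and 13 as lower with the values as deposited, against 8 and 4 after quantile, 11 and 4 after trimmed-mean and 8 and 6 after protein-coding scaling. Over all tested genes, 16.6% passed as higher and 54% as lower with the values as deposited. The all-gene counts were 3520 and 5116 of 14153 after quantile, 4067 and 4155 of 14060 after trimmed-mean and 3513 and 5561 of 15040 after protein-coding scaling. Dnmt3l, the cofactor of new DNA methylation in oocytes, was at 0.09 and 0.08 TPM in non-growing and 20.7 and 24.4 TPM in growing control oocytes (4.43, SE 0.17, limma adjusted p = 5.31e-06). Of these control libraries, only the growing ones, where Dnmt3l was high, reached the 1 TPM of the expression filter, which limits what its p-value can show. The methyltransferase genes Dnmt1 (13.1 and 14.8 to 117 and 115 TPM, 2.97) and Dnmt3a (24.2 and 25.9 to 52.5 and 57.6 TPM, 1.10) also rose, and the histone methyltransferase gene Suv39h1 fell from 14.3 and 16.6 TPM to 1.72 and 1.65 TPM (-2.61). These 4 genes kept their direction under each scaling. In growth of the PRC2 cKO, 8 passed as higher and 12 as lower (10 and 8, 11 and 7, and 11 and 7 in the same order of scalings), where 20.1% and 46% of all tested genes passed as deposited. The all-gene counts under those scalings were 3646 and 5371 of 14153, 4419 and 4267 of 14060, and 4366 and 4628 of 15040.

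For PRC2 cKO against control, none of the 27 passed with limma at either stage, where 0.311% and 0.17% of all tested genes passed. An unadjusted limma p under 0.05 was found for 6 and 1 of them, and for 2316 and 1407 of all 14153 tested genes. Dnmt3a had the smallest p in non-growing oocytes (24.2 and 25.9 against 16.4 and 16.6 TPM, change -0.57, limma adjusted p = 0.137). In growing oocytes Uhrf1, which brings Dnmt1 to DNA, had 68.5 and 63.7 TPM against 66.7 and 225.5 TPM, so that the same cKO replicate 2 stood apart (0.89, limma adjusted p = 0.588). Its change was 1.76 without replicate 1, in a fit with 1 cKO library. In PRC1 cKO, 10 passed as higher and 3 as lower, against 1 and 7 after quantile, 1 and 8 after trimmed-mean and 6 and 5 after protein-coding scaling. Over all tested genes, 41.3% passed as higher and 6.45% as lower with the values as deposited. The all-gene counts were 2722 and 2636 of 14941 after quantile, 3178 and 3117 of 14675 after trimmed-mean and 5438 and 1539 of 15985 after protein-coding scaling. Dnmt1 fell from 257 and 355 TPM to 124 and 78.8 TPM (-1.60, SE 0.28, limma adjusted p = 0.00941), and Dnmt3a from 64.2 and 74.4 TPM to 37.8 and 35.5 TPM (-0.90, SE 0.15, limma adjusted p = 0.00936). Both kept this direction under each scaling, and the Dnmt3a call was lost without PRC1 control replicate 2 (-0.79, limma adjusted p = 0.0545, and from 0.00185 to 0.0344 over the settings that left no library out). The chromatin remodeller gene Hells went from 86.2 and 89.0 TPM to 169.8 and 166 TPM (0.93, limma adjusted p = 0.005), a call that trimmed-mean scaling ended (0.28).

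The genes whose pattern was most like that of Mael were found among 7219 named genes whose mean reached 5 TPM in each table, as the root mean square difference of log2(TPM + 1), centred within each table, over the 12 libraries. The nearest were Sohlh2 (0.118), Lap3 (0.124), Rhox1 (0.149), Zfp422 (0.153) and Eif4ebp1 (0.165), where the spread of Mael itself over the libraries was 1.05. Sohlh2, a transcription factor of early oocytes and spermatogonia, had 117 and 130.2 TPM in PRC2 control and 82.7 and 105 TPM in PRC2 cKO before growth. During growth it had 17.7 and 15.1 TPM in PRC2 control, 26.3 and 36.1 TPM in PRC2 cKO, 29.1 and 42.7 TPM in PRC1 control and 122 and 92.6 TPM in PRC1 cKO. Sohlh2 was thus high in the same libraries as Mael, in the non-growing oocytes of the PRC2 table and in PRC1 cKO. Among the members, Mov10l1 was nearest to Mael, at rank 135 (0.294), followed by Piwil2 at rank 977 and Asz1 at rank 1241. Tdrkh was farthest, at rank 5527.

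Each member has a single gene model in both tables. Of the 10, Tdrkh alone shares exonic bases with another gene, Oaz3, which runs on the opposite strand over 2255 of them and was at no more than 4.24 TPM. The sources used here do not say whether counting used strand. Without it, reads of these 2 genes cannot be told apart over that stretch. Mael (chromosome 1, 166201201 to 166238747), Mov10l1 (chromosome 15, 88982909 to 89055152), Pld6 (chromosome 11, 59783897 to 59787645), Asz1 (chromosome 6, 18050964 to 18109061) and Ddx4 (chromosome 13, 112598333 to 112652475), the genes that rose in PRC1 cKO, are protein-coding genes on 5 chromosomes (GRCm38).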

How the data were processed

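The values are TPM as deposited by the authors, in 2 separately normalized tables that sum to 1000000 per library within rounding. The submitters' processing notes name Trim Galore 0.6.10 for reads, RSEM 1.3.3, Subread 2.0.3, SAMtools, HISAT2 and the build GRCm38/mm10, with no roles. The source of the TPM and the handling of strand and of multiply matching reads are not stated there. TPM keep no depth, so no count test or counting interval was possible.

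A gene was tested in a table if it reached 1 TPM in 2 or more libraries (14153 genes for PRC2, 14941 for PRC1). limma 3.58.1 in R 4.3.3 fitted log2(TPM + 1) over each table's groups jointly, with a variance trend, two-sided p-values and Benjamini-Hochberg adjustment at 0.05, and the fit was tested on simulated data. The members and lists were chosen with earlier results of these data known. By rule, the text names all 10 members, up to 4 genes of smallest p from each other list per comparison, the targeted genes and the 5 genes most like Mael. Of the further piRNA list, 1 gene was not found, and 3 genes (PRC2) and 1 gene (PRC1) were below the filter. Alternatives were other pseudocounts (0.1 and 5), filters (none and 5 TPM) and scalings (quantile, trimmed mean of log ratios, protein-coding sum), no variance trend, robust shrinkage, a replicate block, leaving out each library, and fitting the compared groups alone.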

Additional observations from a re-analysis of the deposited data

How the results depend on the processing

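With no library left out, 18 of 14060 genes passed for PRC2 cKO in growing oocytes with trimmed-mean scaling. A fit without a variance trend gave 12 of 14153, and one of only the groups compared gave 11 of 12252. The count of members called was 0 in these settings, in place of 1. For the difference of the PRC2 cKO effects, 14 of 14153 genes passed with quantile normalization and 15 of 15040 with protein-coding scaling. The count of members called was 1 in each of these settings, in place of 0. With each library left out in turn, the counts ran from 0 to 0 (PRC2 cKO, non-growing), 0 to 2 (growing), 0 to 6 (difference), 6 to 9 (growth in control), 4 to 7 (growth in PRC2 cKO) and 3 to 8 (PRC1 cKO).

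The replicate block gave 0 members for PRC2 cKO in non-growing and 1 in growing oocytes, 0 for the difference, 9 and 6 for growth in control and cKO and 5 for PRC1 cKO. The all-gene counts in the same order were 20, 16, 5, 10171 and 9543 of 14153, and 5094 of 14941. Deviations of same-numbered libraries correlated at -0.03 to 0.26 in the PRC2 table, highest between the PRC2 cKO groups, and not every pair was over 0.1, so the numbers were not taken to pair the libraries, whose origin the labels do not state. In the PRC1 table the correlation was -0.27, and a crossed replicate block, chosen after seeing the data, called 8 members and 9501 of 14941 genes.

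The sign of some log2 changes turned. With trimmed-mean scaling this held for PRC2 cKO in growing oocytes for Ddx4 (-0.007) and Asz1 (-0.007), for the difference for Ddx4 (-0.187) and for PRC1 cKO for Rnf2 (-0.27). With quantile normalization it held for PRC2 cKO in non-growing oocytes for Piwil2 (0.049) and Gtsf1 (-0.393). Ddx4 in growth gave 0.321, 0.405 and 0.159 in control and 0.366, 0.218 and 0.177 in PRC2 cKO with quantile, trimmed-mean and protein-coding scaling. With libraries left out in turn, the PRC2 cKO changes in non-growing oocytes ran from -0.232 to 0.035 for Piwil2, -0.048 to 0.074 for Gtsf1 and -0.045 to 0.136 for Tdrkh. In growing oocytes they ran from -0.046 to 0.283 for Ddx4, -0.056 to 0.859 for Tdrd1 and -0.119 to 0.062 for Tdrkh. The differences ran from -0.15 to 0.179 for Ddx4 and -0.165 to 0.017 for Tdrkh. Growth in PRC2 cKO ran from -0.424 to 0.491 for Tdrd1, -0.491 to 0.67 for Tdrd9 and -0.07 to 0.111 for Tdrkh, and PRC1 cKO from -0.556 to 0.254 for Tdrd1. The cause of these sign changes was not tested.

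Over all tested genes, 44 passed for PRC2 cKO in non-growing oocytes, 36.4% of them higher, against 87 with a pseudocount of 5 (54.0% higher), 91 with no filter, 25 with trimmed-mean scaling, 20 with the replicate block and 6 (without control non-growing replicate 2) to 48 with a library left out. In growing oocytes 24 passed, against 50 with no filter, 12 without a trend, 11 with only the groups compared and 9 (without PRC2 cKO growing replicate 2) to 28 with a library left out. For the difference 14 passed, against 7 with a pseudocount of 5, 9 with the 5 TPM filter, 5 with the replicate block and 2 to 922 (without PRC2 cKO growing replicate 1) with a library left out. For PRC1 cKO, 7140 passed, against 3747 (without control replicate 1) to 5865 with a library left out. Counts with a library left out come from fits in which its group held 1 library and added no spread to the p-values. TPM keep no depth, so counting error could not be assessed.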
